A study of Mus musculus with 24 samples.

Results

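Ribosome biogenesis and nucleolar genes were compared between dividing and differentiated muscle cells in the presence and absence of the retinoblastoma protein (Rb). The set held 40 genes, taken by symbol: subunits of RNA polymerase I, proteins of the small nucleolar ribonucleoproteins (snoRNPs), assembly factors of the small and of the large ribosomal subunit, and nucleolar chaperones and regulators. Every probe set of the Affymetrix MOE430A and MOE430B arrays that was annotated to exactly 1 of these genes was used, 82 of the 45265 on the 2 arrays, and 75 of them passed the filter on dim probe sets. All 40 genes were among the 14331 genes tested, 38 through a probe set on MOE430A and 2 (Dkc1 and Nob1) through a probe set on MOE430B. The question was whether growth genes come back together with cell-cycle genes when Rb is deleted.

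Total RNA of mouse primary muscle cells was measured in 4 groups of 3 cultures, with 1 array of each type per culture. MCK-cre Rb flox myotubes (cultures J, K and L) carried a floxed Rb gene and a Cre transgene driven by the promoter of muscle creatine kinase, which becomes active as muscle cells differentiate. Wild-type (WT) myotubes (G, H and I) were their controls, and both kinds of myotube were taken on day 6 in 5% horse serum, from 3 independent lines per genotype. Rb-null myoblasts (D, E and F) lacked Rb while they were still dividing and are labelled as defective in differentiation. WT myoblasts (A, B and C) were their controls. Both kinds of myoblast came from satellite cells, grew in 20% fetal bovine serum with bFGF, a fibroblast growth factor, and were biological triplicates. The labels give a purity of 99 to 100% by desmin and MyoD staining, with fibroblasts as the contaminating cells. Myotubes and myoblasts therefore differed in serum and growth factor as well as in differentiation, and these cannot be told apart.

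A ribosome is built in the nucleolus. RNA polymerase I transcribes a long precursor of the ribosomal RNAs, snoRNPs guide its methylation and pseudouridylation and help to cut it, and separate sets of assembly factors fold the small and the large subunit around it before export. The pathway is a main consumer of a growing cell's resources, many of its genes are known targets of the transcription factor MYC, and it slows when cells leave the cell cycle. Rb is best known for holding back the E2F transcription factors, which switch on the genes of S phase, and it has also been described to restrain RNA polymerase I itself.

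Rb1 read 685, 802 and 589.8 (arbitrary units of linear array signal, as all signals here) in the MCK-cre Rb flox myotubes and 3664, 3265 and 3314 in the WT myotubes, a 4.33-fold fall (limma adjusted p = 0.000721). It read 428, 712 and 259.7 in the Rb-null myoblasts and 2879, 1439.7 and 1579 in the WT myoblasts, with no overlap but without passing the test over all genes (limma adjusted p = 0.152). Whether this probe set lies inside the deleted part of the gene is not known from the files. Fold changes throughout come from log2 values of the signal plus an offset, so they differ from ratios of the printed signals. All 8 myotube markers were higher in WT myotubes than in WT myoblasts. The median signal of an array ranged from 562 to 720 for MOE430A and from 724 to 975 for MOE430B. All 6 myotube cultures were scanned on the last day together with WT myoblast culture B, and the other 5 myoblast cultures were scanned before.

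Promoter sequences were examined for the letters that MYC and E2F factors are known to bind, because these are the factors usually named for growth genes and for S phase genes. The windows were those of RefSeq on GRCm38.p6, 300 bases from 250 before to 50 after each annotated start, and 35 of the 40 genes had one. CACGTG, the E-box, which reads the same on both strands, was present in the windows of 7 of these 35 genes (20.0%), against 11% of the tested genes with a window and 8.09% of all 27025 genes with a window. The E2F letters TTTCGCGC or TTTGGCGC, on either strand, were present in 1 of the 35 (2.86%), against 1.68% of the tested genes and 14 of 45 (31.1%) of the genes of G1/S and DNA replication. The windows that hold either motif among the genes that fell in WT myotubes are printed 5′ to 3′ on the gene's strand, with the motif in capitals, beside that of Mcm6, a subunit of the replicative helicase, for comparison. They are those of nucleolin (Ncl) at chr1:86359406-86359705 (minus strand), the large subunit rRNA methyltransferase Nop2 at chr6:125131633-125131932 (plus), the nucleolar regulator Mybbp1a at chr11:72441077-72441376 (plus), the small subunit factor Utp18 at chr11:93885717-93886016 (minus) and Mcm6 at chr1:128359656-128359955 (minus).
Ncl: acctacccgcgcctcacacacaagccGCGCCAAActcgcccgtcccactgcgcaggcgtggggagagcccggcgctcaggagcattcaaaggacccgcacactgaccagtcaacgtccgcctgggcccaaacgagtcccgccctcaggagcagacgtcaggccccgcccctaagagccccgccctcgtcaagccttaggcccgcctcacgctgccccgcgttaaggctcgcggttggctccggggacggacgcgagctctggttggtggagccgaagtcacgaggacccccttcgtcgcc
Nop2: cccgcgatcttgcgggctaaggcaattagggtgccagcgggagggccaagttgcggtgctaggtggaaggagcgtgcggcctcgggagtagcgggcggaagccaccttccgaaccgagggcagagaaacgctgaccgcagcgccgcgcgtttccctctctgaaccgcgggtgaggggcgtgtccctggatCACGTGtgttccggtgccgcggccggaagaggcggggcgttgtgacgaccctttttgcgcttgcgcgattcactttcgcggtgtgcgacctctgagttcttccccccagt
Mybbp1a: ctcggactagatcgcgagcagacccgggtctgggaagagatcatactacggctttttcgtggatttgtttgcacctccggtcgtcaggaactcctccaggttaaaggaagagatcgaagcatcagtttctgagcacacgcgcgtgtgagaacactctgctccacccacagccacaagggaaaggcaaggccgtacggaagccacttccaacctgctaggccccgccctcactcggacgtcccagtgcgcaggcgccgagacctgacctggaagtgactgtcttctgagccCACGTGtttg
Utp18: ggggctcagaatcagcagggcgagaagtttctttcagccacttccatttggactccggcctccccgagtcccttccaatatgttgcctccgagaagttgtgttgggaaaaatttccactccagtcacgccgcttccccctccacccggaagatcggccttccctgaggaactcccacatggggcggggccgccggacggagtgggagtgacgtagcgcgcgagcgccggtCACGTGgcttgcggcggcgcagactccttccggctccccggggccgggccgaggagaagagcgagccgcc
Mcm6: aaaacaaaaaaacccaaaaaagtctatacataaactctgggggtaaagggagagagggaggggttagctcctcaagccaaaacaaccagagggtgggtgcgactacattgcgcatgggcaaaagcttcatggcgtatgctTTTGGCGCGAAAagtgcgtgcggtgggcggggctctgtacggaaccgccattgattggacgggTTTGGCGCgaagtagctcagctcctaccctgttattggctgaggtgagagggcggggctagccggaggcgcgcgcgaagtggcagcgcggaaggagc
The capitals in Ncl are the E2F letters read on the opposite strand, and those in Nop2, Mybbp1a and Utp18 are the E-box. Mcm6 has 3 E2F matches, of which the first and the second overlap on opposite strands. The other E-boxes were in the windows of Imp4, Pes1, Tsr1 and Wdr43, none of which passed the test in WT myotubes at the probe set that represented the gene. Another probe set was called lower there for Pes1 (-1.25 on the log2 scale), Tsr1 (-0.84) and Wdr43 (-0.91). By the representing probe sets, the E-box was in the windows of 3 of 16 genes that fell in WT myotubes (18.8%). It was in those of 4 of 19 genes that did not pass (21.1%). This split depended on the choice of probe set. The genes without a window included Rrs1, Npm1 and Fbl, which fell. A match describes letters in this window only.

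The level of the set in each culture was the mean over the 40 genes of the log2 signal minus the gene's mean over all 12 cultures. It was -0.41, -0.39 and -0.33 in the MCK-cre Rb flox myotubes, -0.32, -0.51 and -0.23 in the WT myotubes, 0.60, 0.39 and 0.34 in the Rb-null myoblasts and 0.25, 0.26 and 0.34 in the WT myoblasts. All 6 myotube cultures lay below all 6 myoblast cultures, and the MCK-cre Rb flox values fell within the span of the WT myotube values. For the 54 tested genes of G1/S and DNA replication the same measure was 0.51, 0.54 and 0.52 in the MCK-cre Rb flox myotubes, -1.54, -1.60 and -1.62 in the WT myotubes, 0.86, 0.93 and 0.74 in the Rb-null myoblasts and 0.04, 0.29 and 0.33 in the WT myoblasts. The MCK-cre Rb flox myotubes thus stood above the WT myoblasts for S phase genes. In the mean over all roles they stood beside the WT myotubes for ribosome biogenesis genes.

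**Figure D1:**
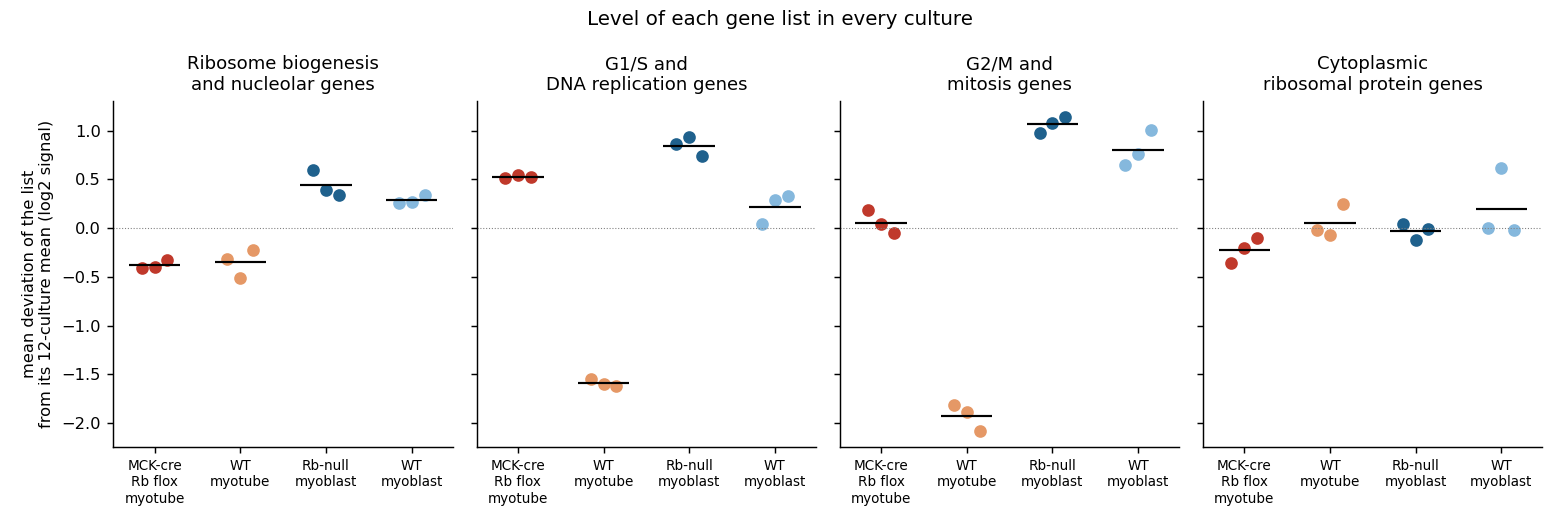
Mean deviation of each gene list from its mean over 12 cultures (log2 signal, y axis) in every culture of the 4 groups (x axis); points are cultures and bars are means of 3. The MCK-cre Rb flox myotubes lie at -0.41 to -0.33 for the 40 ribosome biogenesis and nucleolar genes and at 0.51 to 0.54 for the G1/S genes, while the WT myotubes are low in both.

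In WT myotubes, set against WT myoblasts, 19 of the 40 genes fell and 0 rose (limma adjusted p under 0.05 over all genes), with 24 at an unadjusted p under 0.05, where 41.8% of all tested genes had such a p. Over all tested genes 15.3% were called lower and 14.5% higher. The median log2 change of the set was -0.56, against 0.14 over all genes, and 33 of the 40 changes were negative. The falls ran from 5.43-fold for Rrs1 to 1.48-fold for Nip7. By role, 7 of 9 snoRNP proteins fell, 5 of 12 large subunit factors, 3 of 5 nucleolar chaperones and regulators, 3 of 10 small subunit factors and 1 of 4 RNA polymerase I subunits. In bulk RNA, fewer cells of a type and less RNA per cell cannot be told apart. Fibroblast markers moved in both directions in this comparison. Their summed signal was 17266 to 23647 in the WT myotubes and 40609 to 60148 in the WT myoblasts. Of 11 tested, 3 fell (Col3a1, Col5a2 and Fbln1) and 1 rose, while 6 of the 11 log2 changes were positive, with a median of 0.37. The macrophage markers summed to 3677 to 5404 in the WT myotubes and 2127 to 4100 in the WT myoblasts, with 1 of 5 (Csf1r) called higher, and the adipocyte markers to 955 to 1623 in the WT myotubes and 2144 to 3775 in the WT myoblasts, with Lpl lower. The 3′ to 5′ signal ratio of beta-actin was 0.533 ± 0.0962 in the WT myotubes and 1.10 ± 0.0626 in the WT myoblasts (SD, n = 3 each), and that of Gapdh was 0.834 ± 0.0377 in the WT myotubes and 0.791 ± 0.00813 in the WT myoblasts. Their part in the falls was not tested.

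**Figure D2:**
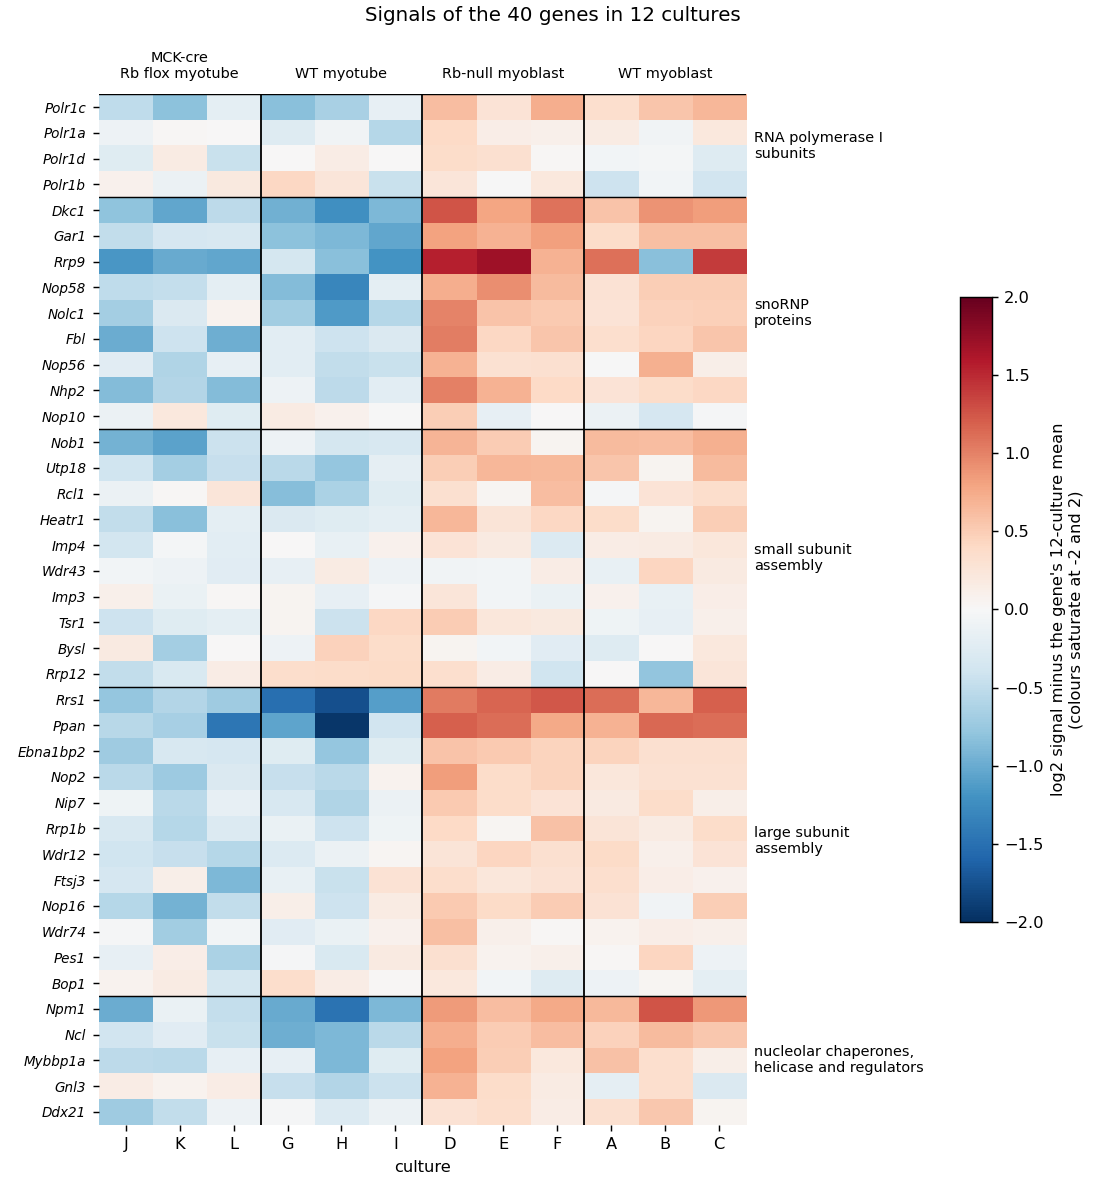
Log2 signal of each of the 40 genes (rows, grouped by role) minus its mean over 12 cultures, in each culture (columns, grouped); red is above and blue below the gene's mean. Most snoRNP rows and Rrs1, Ppan, Npm1 and Ncl are blue in both kinds of myotube, while rows such as Bop1, Imp3 and Polr1b show little contrast.

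Among the RNA polymerase I subunits, the catalytic ones did not pass the test. Polr1a, the largest subunit, read 1822, 1991 and 1974 in the MCK-cre Rb flox myotubes, 1620.0, 1857 and 1272 in the WT myotubes, 2617, 2163 and 2103 in the Rb-null myoblasts and 2204, 1858 and 2287 in the WT myoblasts. WT myotube and WT myoblast values lay side by side without overlapping, and the log2 change of -0.40 (95% interval -0.80 to 0.00) missed the test. Polr1b, the other subunit of the catalytic core, read 1182, 1007 and 1282 in the MCK-cre Rb flox myotubes, 1515, 1331 and 775 in the WT myotubes, 1332, 1087 and 1288 in the Rb-null myoblasts and 793, 1054 and 812 in the WT myoblasts. Its groups overlapped in all myotube comparisons, and in WT myotubes its change was 0.36 (-0.18 to 0.89). Polr1c, which RNA polymerase I shares with RNA polymerase III, was the subunit that fell: it averaged 1031 ± 249.9 in the MCK-cre Rb flox myotubes, 1003 ± 288 in the WT myotubes, 2254 ± 382 in the Rb-null myoblasts and 2208 ± 256 in the WT myoblasts (SD, n = 3 each). That was 2.10-fold lower in WT myotubes than in WT myoblasts (log2 change -1.07, SE 0.24, limma adjusted p = 0.00488). Polr1d, also shared with RNA polymerase III, changed by 0.17 in WT myotubes and did not pass. Its other probe sets changed by -0.88, -0.13 and -0.59 there, none called in a fit over all probe sets. In MCK-cre Rb flox myotubes against WT myoblasts these were called lower (-1.64, -0.72 and -1.24). The probe set that represented Polr1d changed by -0.06 in that comparison, so its result depended on the probe set.

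Most of the snoRNP proteins fell in differentiation. Dkc1, dyskerin, the pseudouridine synthase of the H/ACA class, read 6221, 5219 and 7611 in the MCK-cre Rb flox myotubes, 5534, 4555 and 5825 in the WT myotubes, 26545, 19114 and 23452 in the Rb-null myoblasts and 16486, 20686 and 19873 in the WT myoblasts. Every myotube culture was below every myoblast culture, and the 2 kinds of myotube overlapped. The fall in WT myotubes was 3.49-fold (log2 change -1.80, SE 0.19, limma adjusted p = 2.26e-05). Gar1, a structural partner of dyskerin, read 1723, 1928 and 1965 in the MCK-cre Rb flox myotubes, 1350.1, 1261 and 1139.9 in the WT myotubes, 4435, 4079 and 4485 in the Rb-null myoblasts and 3223, 3817 and 3836 in the WT myoblasts. It fell 2.72-fold in WT myotubes (limma adjusted p = 2.97e-05), and the MCK-cre Rb flox myotubes stood above all WT myotubes but well below all myoblasts. The other H/ACA proteins differed from each other, since Nhp2 fell 1.55-fold in WT myotubes while Nop10 changed by 0.24 and did not pass.

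In the C/D class of snoRNPs, Nop58, a core scaffold protein, read 2436, 2491 and 3083 in the MCK-cre Rb flox myotubes, 1878, 1349.8 and 3051 in the WT myotubes, 5909, 6876 and 5539 in the Rb-null myoblasts and 4322, 5023 and 5026 in the WT myoblasts. The 2 kinds of myotube overlapped and both lay below all myoblasts, with a 2.32-fold fall in WT myotubes (limma adjusted p = 0.00208). Nop56, its partner, read 3606, 2749.6 and 3803 in the MCK-cre Rb flox myotubes, 3655, 3003 and 3099.7 in the WT myotubes, 6967, 5290.4 and 5319.5 in the Rb-null myoblasts and 4218, 7048 and 4653 in the WT myoblasts. It fell 1.57-fold in WT myotubes (limma adjusted p = 0.0347). Fbl, fibrillarin, the methyltransferase of this class, read 2229, 3385 and 2249 in the MCK-cre Rb flox myotubes, 3943, 3389 and 3709 in the WT myotubes, 9451, 6127 and 6762 in the Rb-null myoblasts and 5786, 6188 and 6803 in the WT myoblasts. It fell 1.68-fold in WT myotubes (limma adjusted p = 0.0148), and the highest MCK-cre Rb flox culture, at 3385, lay just below the lowest WT myotube culture, at 3389. A second probe set of Fbl read 2351, 2885 and 2171 in the MCK-cre Rb flox myotubes and 2151, 1568 and 3037 in the WT myotubes, which overlapped, with a change of 0.16, and it fell by 1.80 on the log2 scale in WT myotubes against WT myoblasts. Nolc1, a nucleolar chaperone of snoRNPs, fell 2.30-fold in WT myotubes. Rrp9, a protein of the U3 snoRNP, was 2.54-fold lower there without passing the test (limma adjusted p = 0.0571), and WT myoblast culture B, at 214, was far below A and C at 1179 and 1478.

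Of the small subunit factors 3 fell. Nob1, the endonuclease that makes the mature 3′ end of 18S rRNA, averaged 3895 ± 1013 in the MCK-cre Rb flox myotubes, 5739 ± 573 in the WT myotubes, 9360.4 ± 2053 in the Rb-null myoblasts and 10943 ± 409 in the WT myoblasts (SD, n = 3 each). It fell 1.88-fold in WT myotubes (limma adjusted p = 0.00487). Utp18, of the early U3 processome, fell 1.88-fold (limma adjusted p = 0.00748) and Rcl1 fell 1.71-fold (limma adjusted p = 0.0218). Heatr1, which also acts in transcription of the precursor, was 1.46-fold lower and did not pass (limma adjusted p = 0.0549). The other 6 factors, Imp3, Imp4, Wdr43, Tsr1, Bysl and Rrp12, had log2 changes between -0.20 and 0.55, none called. A second probe set was called lower for Wdr43 (-0.91, limma adjusted p = 0.0136) and for Tsr1 (-0.84, limma adjusted p = 0.0426).

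Rrs1, which brings the 5S particle into the large subunit, had the largest fall of the set. It read 968, 1122 and 1021 in the MCK-cre Rb flox myotubes, 534, 428 and 745 in the WT myotubes, 3739, 4088 and 4313 in the Rb-null myoblasts and 3942, 2839.7 and 4172 in the WT myoblasts. Both kinds of myotube lay below all myoblasts, and the MCK-cre Rb flox cultures above all WT myotubes, and the fall in WT myotubes was 5.43-fold (log2 change -2.44, SE 0.21, limma adjusted p = 5.28e-06). Ppan, a large subunit factor of the Brix family, read 423, 382 and 168 in the MCK-cre Rb flox myotubes, 260.4, 81.0 and 492 in the WT myotubes, 1727, 1639 and 1242 in the Rb-null myoblasts and 1189, 1669 and 1621 in the WT myoblasts. All myotube values were below all myoblast values, some of them near the offset of 130 that was added before taking logs, and the fall in WT myotubes was 4.33-fold (limma adjusted p = 0.001). Ebna1bp2 fell 1.72-fold, the rRNA methyltransferase Nop2 1.5-fold and Nip7 1.48-fold. A second probe set of Nip7 rose in the same comparison (1.04, limma adjusted p = 0.00928), and the mean of its probe sets changed by 0.24, so its direction depended on the probe set.

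For the PeBoW complex, which acts in maturation of the large subunit rRNAs, the result depended on the probe set. At the probe sets that represented the genes, Bop1 read 5348, 5757 and 3946 in the MCK-cre Rb flox myotubes, 6508, 5640.2 and 5194 in the WT myotubes, 5899, 4879.8 and 4229.6 in the Rb-null myoblasts and 4734, 5218 and 4419.6 in the WT myoblasts. Pes1 read 1214, 1522 and 844 in the MCK-cre Rb flox myotubes, 1355, 1090.1 and 1592 in the WT myotubes, 1758, 1456 and 1499 in the Rb-null myoblasts and 1404, 1918 and 1274 in the WT myoblasts. At these probe sets WT myotubes and WT myoblasts overlapped for both genes, with log2 changes of 0.26 (-0.14 to 0.66) for Bop1 and -0.17 (-0.69 to 0.36) for Pes1. A dimmer probe set of each was called lower in WT myotubes. That of Pes1 read 127, 284 and 103 in the WT myotubes and 465, 722 and 527 in the WT myoblasts, a change of -1.25 (limma adjusted p = 0.0385). That of Bop1 changed by -1.07 (limma adjusted p = 0.0361), with 309, 438 and 332 in the WT myotubes and 1464, 443 and 1333 in the WT myoblasts, where culture B lay just above the WT myotubes. The third protein of the complex, Wdr12, changed by -0.37 (-0.79 to 0.06) and did not pass.

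Among the nucleolar chaperones, Npm1, nucleophosmin, read 7185, 13176 and 10369 in the MCK-cre Rb flox myotubes, 7097, 5116 and 7703 in the WT myotubes, 26203, 22274 and 24513 in the Rb-null myoblasts and 22843, 34781 and 26528 in the WT myoblasts. The 2 kinds of myotube overlapped through culture J, and the fall in WT myotubes was 4.16-fold (log2 change -2.06, SE 0.24, limma adjusted p = 4.97e-05). Ncl, nucleolin, which binds the precursor rRNA, read 11718, 13012 and 11180.5 in the MCK-cre Rb flox myotubes, 7734, 8132 and 10513 in the WT myotubes, 25577, 21800.5 and 23573 in the Rb-null myoblasts and 21124, 23847 and 22220.4 in the WT myoblasts. It fell 2.54-fold in WT myotubes (limma adjusted p = 7.55e-05), and the MCK-cre Rb flox myotubes lay between the WT myotubes and the myoblasts. Gnl3, nucleostemin, a nucleolar GTPase of dividing and stem cells, read 4506, 4255 and 4512 in the MCK-cre Rb flox myotubes, 2915, 2633 and 2956 in the WT myotubes, 6609, 5245 and 4547 in the Rb-null myoblasts and 3552, 5143 and 3299.5 in the WT myoblasts. Its 1.37-fold lower level in WT myotubes did not pass (limma adjusted p = 0.0932). The nucleolar regulator Mybbp1a fell 1.72-fold, and the RNA helicase Ddx21 was 1.36-fold lower without passing. A second probe set of Ddx21 was called lower in WT myotubes (-1.32, limma adjusted p = 0.0086).

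**Figure D3:**
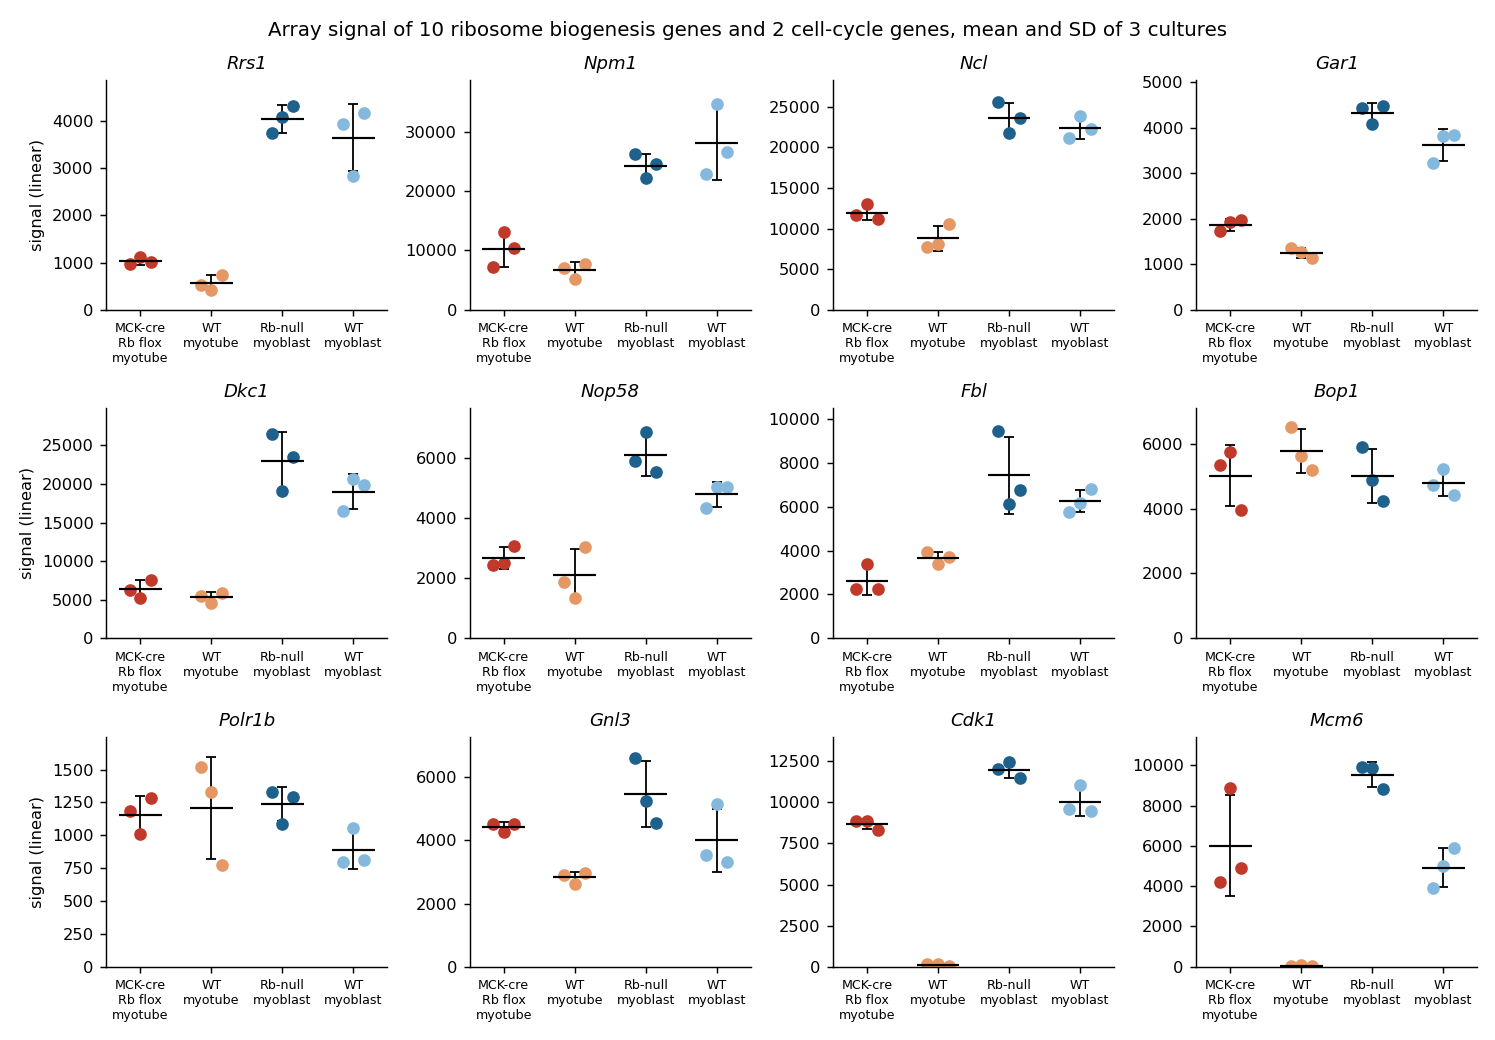
Linear array signal (y axis) of 10 of the genes and of the cell-cycle genes Cdk1 and Mcm6 in every culture of the 4 groups (x axis); points are cultures, bars the mean and whiskers the SD of 3. Rrs1, Npm1, Ncl, Gar1, Dkc1, Nop58 and Fbl are low in both kinds of myotube, while Cdk1 reads 8328 to 8857 in the MCK-cre Rb flox myotubes and 36.1 to 169 in the WT myotubes.

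The count of falls in WT myotubes depended on the scan days and on single cultures. With scan day as a block, 11 genes fell and 1 rose, and 10 of the original 19 were kept. With arrays of the last day only, which leaves WT myoblast culture B as the sole control, 6 fell (Rrs1, Npm1, Dkc1, Gar1, Ncl and Nop56), with the lone culture assumed to vary like the others. Without WT myotube culture H 12 fell, without WT myoblast culture C 13 and without A 15. The median of the set was -0.58 both with the block and on the last day alone. These values had to be equal, since WT myoblasts were the only group scanned both on the last day and before it. With the block, too, the estimate sets the WT myotubes against culture B alone. The 18S rRNA control probe sets on MOE430A read 5394 to 11786 on the last day, culture B included at 7903, and 199 to 511 on the first day, so they moved with the scan day and not with the groups. With the log signals centred on each array's median, the median change of all genes in this comparison was 0.02, a shift from the 0.14 without centring, and 20 of the 40 genes fell.

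Few genes of the set passed the test when Rb was deleted at differentiation. In MCK-cre Rb flox myotubes, set against WT myotubes, 2 of the 40 genes rose and 0 fell, with 11 at an unadjusted p under 0.05, where 24.3% of all tested genes (3487) had such a p. Over all tested genes 6.99% were called higher and 4.47% lower, so the share of the set called higher, 5.00%, was near that of all genes. The median log2 change was -0.11, against 0.01 over all genes, and 16 of 40 changes were positive. Medians by role were 0.01 for RNA polymerase I subunits and 0.05 for snoRNP proteins. They were -0.22 for small subunit factors (8 of 10 negative) and -0.18 for large subunit factors (9 of 12 negative). For nucleolar chaperones and regulators the median was 0.45, with 4 of 5 changes positive. Differences between roles were not tested. The genes that rose were Rrs1, at 1037 ± 78.3 in the MCK-cre Rb flox myotubes against 569 ± 162 in the WT myotubes, and Gar1, at 1872 ± 131 against 1250.5 ± 106 (SD, n = 3 each). Their log2 changes were 0.76 (SE 0.21, limma adjusted p = 0.0348) for Rrs1 and 0.54 (SE 0.16, limma adjusted p = 0.0446) for Gar1, with all 3 cultures above all 3 in each.

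Neither call held under all settings. Both were lost with median centring, on the last scan day alone and when any 1 of the cultures D, E, G, H, J, K or L was left out. Gar1 alone was lost with A, C, F or I left out, with quantile normalisation, with array weights, with the offset doubled and without the variance trend. Rrs1 also has a probe set on MOE430B, which read 2034, 1942 and 2200.5 in the MCK-cre Rb flox myotubes and 2615, 1181 and 2161.5 in the WT myotubes, and its change was 0.11, against 0.76 on MOE430A. With the brightest probe set of each gene 0 members rose.

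**Figure D4:**
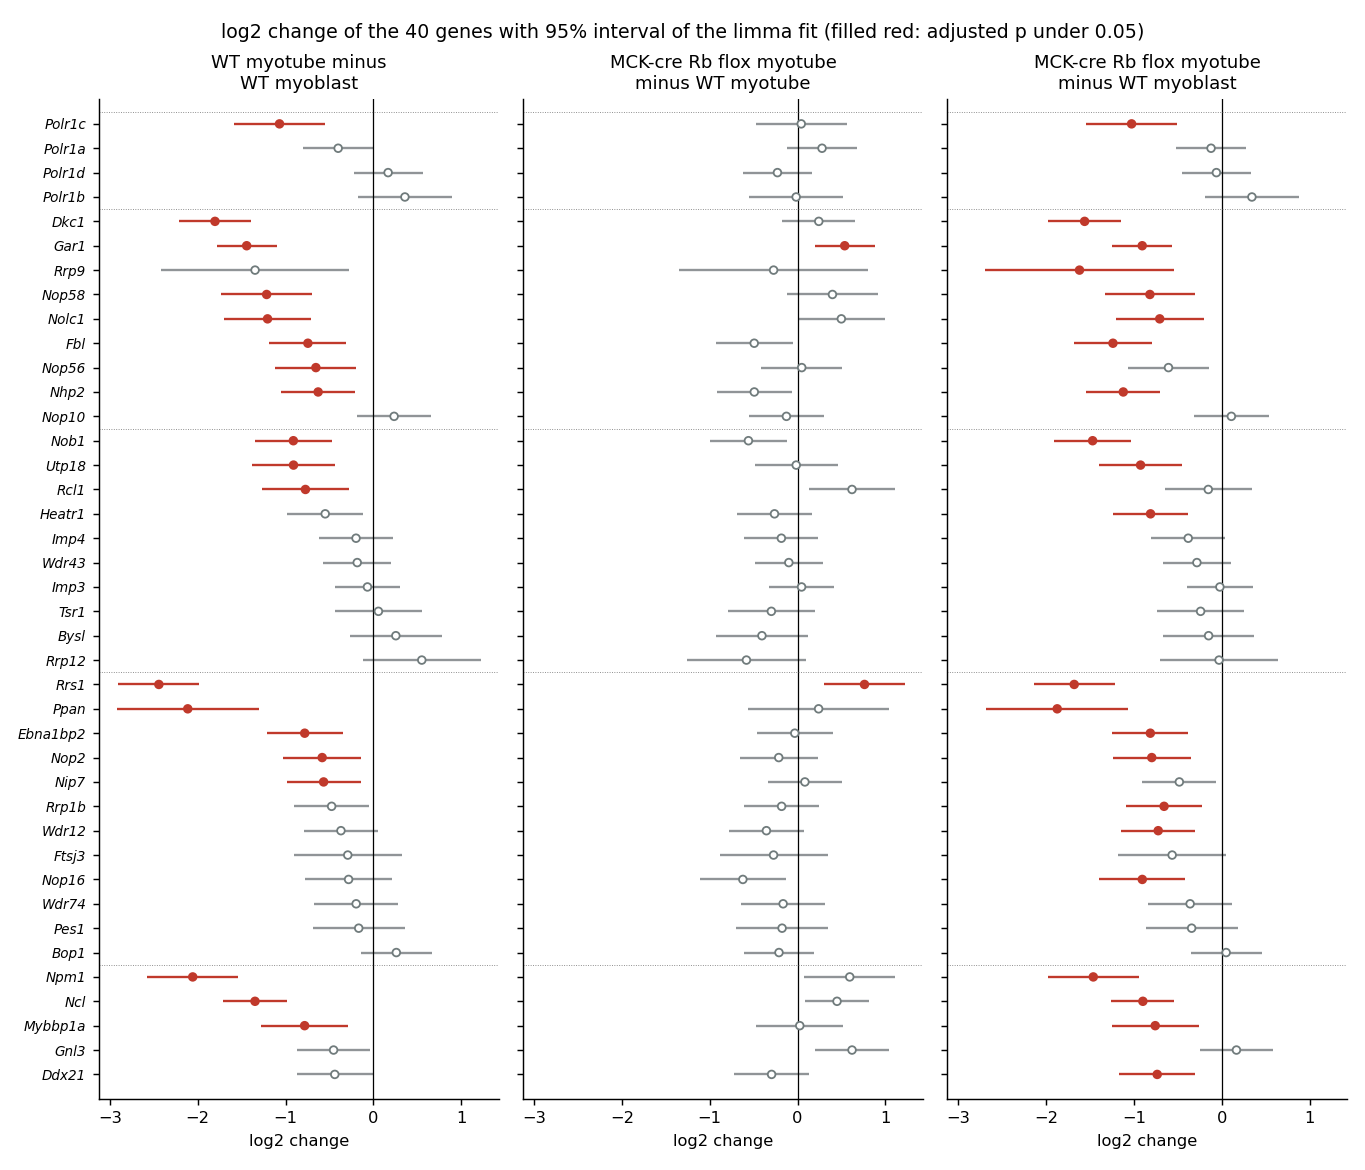
Log2 change (x axis) of each of the 40 genes (rows, grouped by role) with its 95% interval in 3 comparisons; filled red marks limma adjusted p under 0.05. There are 19 falls in WT myotubes against WT myoblasts, 2 rises in MCK-cre Rb flox against WT myotubes, and 22 falls in MCK-cre Rb flox myotubes against WT myoblasts.

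Several other genes lay apart between the 2 kinds of myotube without passing the test. In total 5 of the 40 genes had all MCK-cre Rb flox values above all WT myotube values and 6 had all of them below, where 14.8% of all tested genes lay fully above and 13.1% fully below. These counts were near the shares over all genes. Gnl3 was 1.54-fold higher (log2 change 0.62, 95% interval 0.20 to 1.04, limma adjusted p = 0.0554), and with 3 alternative settings (a stricter filter on dim probe sets, a fit per chip type, array weights), with scan day as a block and without WT myoblast culture B it passed. Ncl was 1.37-fold higher (0.09 to 0.81 on the log2 scale, limma adjusted p = 0.107) and passed with quantile normalisation. Rcl1 was 1.54-fold higher (0.13 to 1.11, limma adjusted p = 0.105). Npm1 was 1.51-fold higher with overlapping cultures (0.07 to 1.12, limma adjusted p = 0.143). On the low side were Nop16, at 952, 705 and 1014 in the MCK-cre Rb flox myotubes and 1602, 1076 and 1676 in the WT myotubes, and Nob1, Fbl, Nhp2, Wdr12 and Rrp12. Their log2 changes ran from -0.62 for Nop16 to -0.35 for Wdr12, none called, although Nop16 was called lower with quantile normalisation, Fbl without culture K and Nob1 without culture L.

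The genes of S phase and mitosis moved differently in the same comparison. Of the 54 genes of G1/S and DNA replication, 46 rose and 0 fell in MCK-cre Rb flox against WT myotubes, with a median log2 change of 2.13, and of the 45 genes of G2/M and mitosis, 35 rose and 0 fell, with a median of 1.77. Mcm6 read 4218, 8863 and 4924 in the MCK-cre Rb flox myotubes and 37.3, 72.2 and 53.4 in the WT myotubes, a 31.7-fold rise on the scale with the offset. Cdk1, the kinase that drives mitosis, rose 37.3-fold. Ccne2, the S phase cyclin E2, rose 5.43-fold, and E2f1, itself an E2F gene, 7.77-fold. The 95% interval ended under a doubling for 35 of the 40 ribosome biogenesis genes and for 3 of the 54 G1/S genes. It began above a doubling for 0 and 35 of them. In WT myotubes against WT myoblasts the median log2 change was -0.56 for the ribosome biogenesis genes and -1.85 for the G1/S genes. A rise that undid the median fall of the ribosome biogenesis genes would thus stay under a doubling. These counts therefore cannot show whether those genes returned to the myoblast level.

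On MOE430A the MCK-cre Rb flox arrays J, K and L had a fluidics run of their own, so on that array type the run and the deletion cannot be told apart. On MOE430B, cultures J and K shared a run with H and I. Within that run 0 of the 13 probe sets of the genes passed, with a median log2 change of -0.26, against -0.30 with all cultures. Of the 24 G1/S probe sets 2 passed within the run, with a median of 0.79, against 0.74 with all cultures, and of the 20 G2/M probe sets 0 passed, with medians of 0.93 and 0.68. With 2 cultures against 2, few probe sets of any list passed, so the 0 among the members says little. In MCK-cre Rb flox against WT myotubes all 8 myotube markers had negative log2 changes, with a median of -0.89 and 1 called lower. Their summed signal was 304605 to 400102 in the MCK-cre Rb flox myotubes and 550001 to 793243 in the WT myotubes. Markers of other cells moved with the deletion too. Of the 11 tested fibroblast markers, 3 (Col3a1, Col5a2 and Fbln1) rose, and their summed signal was 34264 to 48436 in the MCK-cre Rb flox myotubes and 17266 to 23647 in the WT myotubes. The 2 tested adipocyte markers, Lpl and Fabp4, summed to 8701 to 15191 in the MCK-cre Rb flox myotubes and 955 to 1623 in the WT myotubes, and Lpl, which muscle also expresses, rose while Fabp4 did not pass. The summed macrophage markers were 4587 to 5726 in the MCK-cre Rb flox myotubes and 3677 to 5404 in the WT myotubes, with 0 of 5 called, and the endothelial markers were 948 to 1530 in the MCK-cre Rb flox myotubes and 984 to 1987 in the WT myotubes, with 0 of 2 called. The 3′ to 5′ signal ratio of beta-actin was 0.879 ± 0.0794 in the MCK-cre Rb flox and 0.533 ± 0.0962 in the WT myotubes (SD, n = 3 each). The part of these differences in the values of the set was not tested.

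Set against WT myoblasts, the MCK-cre Rb flox myotubes gave the most direct view of how far the genes were from the level of dividing cells. There 22 of the 40 genes were lower and 0 higher, while 9.02% of all tested genes were called lower and 9.57% higher. The median log2 change was -0.71, against 0.16 over all genes. Ppan was 3.66-fold lower (limma adjusted p = 0.00494), Rrs1 3.20-fold (limma adjusted p = 0.000435), Dkc1 2.95-fold (limma adjusted p = 0.000349), Nob1 2.77-fold, Npm1 2.76-fold and Fbl 2.36-fold. Of the cell-cycle lists, 13 of 54 G1/S genes were higher and 1 lower (median 0.29), and 0 of 45 G2/M genes were higher and 18 lower (median -0.64). Cdk1 differed by -0.21 and Mcm6 by 0.22 from the WT myoblasts, and neither passed. Of the 5 macrophage markers 2 (Cd68 and Csf1r) were higher, as was Lpl, and 0 of 11 fibroblast markers were called. Their part in these values was not tested. The 22 falls became 11 with scan day as a block, 1 (Dkc1) on the last scan day alone, 12 without WT myoblast culture A, 11 without C and 14 without MCK-cre Rb flox culture K. Median centring gave 24 falls; it shifted the median of all genes to -0.02, and the calls over all genes to 789 higher and 1663 lower, against 1371 higher and 1292 lower without it.

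The MCK-cre Rb flox myotubes were also set against the Rb-null myoblasts, a comparison that shares no culture with that of the WT cells. In these myotubes Rb was deleted as the cells differentiated, whereas the Rb-null myoblasts lacked it while dividing and are labelled as defective in differentiation. The comparison therefore does not follow 1 kind of cell through differentiation, and its falls are called falls without Rb only for short. In it 24 of the 40 genes fell and 0 rose, against 9.3% of all tested genes called lower and 9.58% higher. The median log2 change was -0.79, and all 40 changes were negative, the nearest to 0 being that of Bop1. By role, 8 of 9 snoRNP proteins fell, 8 of 12 large subunit factors, 4 of 5 nucleolar chaperones and regulators, 3 of 10 small subunit factors and 1 of 4 RNA polymerase I subunits. Rrp9 fell 5.21-fold (limma adjusted p = 0.00663), Ppan 3.76-fold, Rrs1 3.58-fold, Dkc1 3.55-fold, Nhp2 2.78-fold and Fbl 2.76-fold. Of the 19 genes that fell in WT cells, 18 fell here as well (94.7% of the 19 and 75% of the 24), the exception being Rcl1. The other 6 genes that fell here were Rrp9, Heatr1, Nop16, Rrp1b, Wdr12 and Ddx21. The same overlap over all tested genes was not computed, so 94.7% cannot be read as particular to the set. Both comparisons also set myotubes scanned on the last day against myoblasts scanned mostly or only before it. The part of the scan day in the overlap was not tested. Of the 5 tested macrophage markers 3 (Adgre1, Cd68 and Csf1r) were higher, with sums of 4587 to 5726 in the MCK-cre Rb flox myotubes and 2221 to 3408 in the Rb-null myoblasts. The adipocyte markers summed to 8701 to 15191 in the MCK-cre Rb flox myotubes and 997 to 2389 in the Rb-null myoblasts, and the fibroblast markers, of which 1 rose and 1 fell, to 34264 to 48436 in the MCK-cre Rb flox myotubes and 38074 to 50082 in the Rb-null myoblasts. The beta-actin ratio was 0.879 ± 0.0794 in the MCK-cre Rb flox myotubes and 1.02 ± 0.0533 in the Rb-null myoblasts (SD, n = 3 each). Their part in the falls was not tested.

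Cell-cycle genes gave other shares over the same pair of comparisons. Of the 43 G1/S genes that fell in WT cells, 7 also fell without Rb (16.3%), and of the 42 G2/M genes, 26 did (61.9%). Over the 129 tested genes of the other ribosome biogenesis lists, 41 fell with Rb, 29 without Rb and 23 in both, which is 56.1% of the 41. With scan day as a block only 3 of the 24 falls without Rb passed (Nop56, Gar1 and Dkc1), and on neither array type was a Rb-null myoblast scanned on the day of the myotubes. The median of the set under the block was -0.76. Median centring gave 25 falls, with 732 genes higher and 1833 lower over all genes, against 1373 and 1333 without it.

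**Figure D5:**
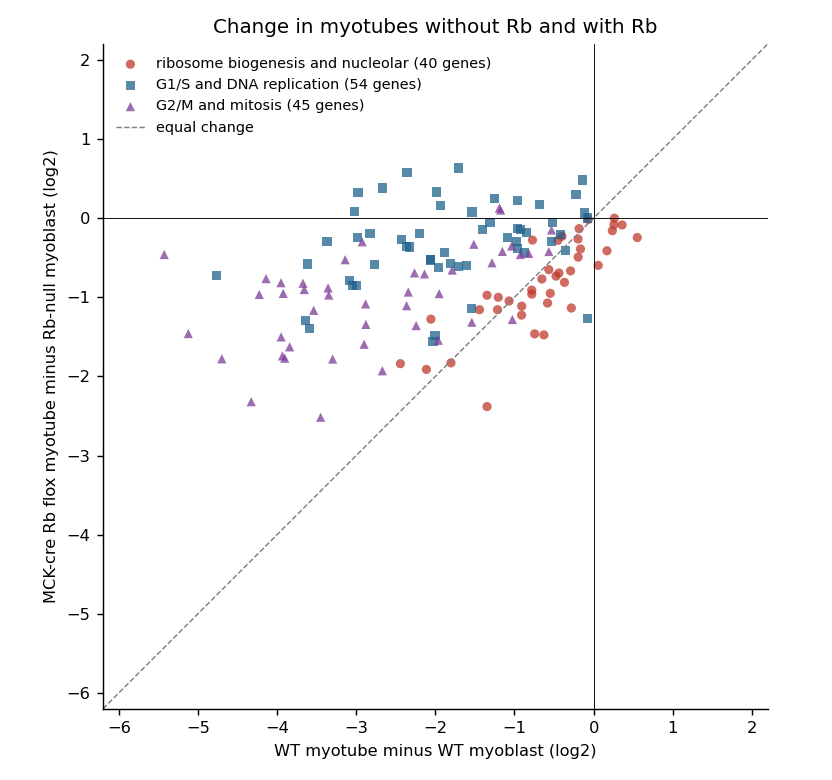
Log2 change of MCK-cre Rb flox myotubes against Rb-null myoblasts (y axis) and of WT myotubes against WT myoblasts (x axis) for 3 gene lists; each point is a gene and the dashed line marks equal change. Above the line lie 13 of the 40 ribosome biogenesis genes, 52 of the 54 G1/S genes and 44 of the 45 G2/M genes.

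In dividing cells no gene passed the test for Rb loss. In Rb-null myoblasts, set against WT myoblasts, 0 of the 40 genes were called, nor was any of the 14331 tested genes (0% higher and 0% lower), with 1 of the set (Gnl3) and 751 of all genes (5.24%) at an unadjusted p under 0.05. The median log2 change of the set was 0.15, against -0.01 over all genes, and 33 of the 40 changes were positive, among them all 9 snoRNP proteins and all 12 large subunit factors. The share of positive changes over all genes was not computed. All Rb-null myoblasts were scanned before the last day, whereas WT myoblast culture B was scanned on it. The upper end of the 95% interval was under a doubling for 39 of the 40 genes, the exception being Rrp9. Gnl3 was 1.37-fold higher (0.03 to 0.87 on the log2 scale, limma adjusted p = 0.918) and Polr1b 1.35-fold (-0.10 to 0.97). All 54 G1/S genes had positive changes in this comparison, with a median of 0.61 and 0 called.

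The test of whether Rb loss acted differently in myotubes and in myoblasts, the myotube effect minus the myoblast effect, called 0 of the 40 genes, against 1.49% of all tested genes called higher and 0.74% lower. At an unadjusted p under 0.05 were 5 of the 40, where 14.7% of all tested genes were, so the members were not above the share over all genes. The median difference was -0.21. The 5 were Nop16 at -0.85 (95% interval -1.55 to -0.16), Nhp2 at -0.85 (-1.45 to -0.25), Fbl at -0.72 (-1.34 to -0.10), Polr1d at -0.58 (-1.14 to -0.03) and, on the positive side, Npm1 at 0.78 (0.04 to 1.52). Rrp9 had the largest difference, -1.03, with an interval from -2.55 to 0.48. By the same test 25 of 54 G1/S genes and 21 of 45 G2/M genes were called higher. With array weights 1 gene of the set, Nhp2, was called lower.

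Genes of the same pathway outside the set were counted for comparison. In WT myotubes against WT myoblasts 41 of 129 tested genes fell and 5 rose, with a median log2 change of -0.36. These included 5 of 13 other snoRNP and rRNA modification genes, led by the H/ACA assembly factor Naf1 at -1.66 and the C/D assembly factor Znhit6 at -1.34, and 8 of 14 genes of the RNA exosome and pre-rRNA trimming, led by the exonuclease Eri1 at -2.27 and by Isg20l2 at -1.83. The other small subunit factors gave 14 falls of 44, with Utp20 at -1.41 and Wdr75 at -1.39, and 2 rises, Riok3 at 1.22 and Nol6 at 0.91. The other large subunit factors gave 13 falls of 50, with Ddx55 at -1.88 and Mdn1 at -1.68, and 3 rises, among them Rpf2 at 2.21 and Ddx24 at 1.03. Of 8 other RNA polymerase I genes, 1 fell, the architectural factor Ubtf at -0.79.

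In MCK-cre Rb flox against WT myotubes, 4 of these 129 genes rose and 1 fell, with a median of 0.07. Eri1, which also trims histone mRNA, rose by 2.34 and Exosc7, an exosome subunit, by 0.76. The large processome scaffold Utp20 rose by 1.55 and Utp4 by 0.63, while Rsl1d1 fell by 0.72. Of 41 cytoplasmic ribosomal protein genes, 0 were called in that comparison, with a median of -0.30, and 11 were lower in MCK-cre Rb flox myotubes than in WT myoblasts, 0 higher. In WT myotubes against WT myoblasts 4 of them fell and 1 rose. Their mean deviation, on the scale used for the levels per culture, was 0.61 in WT myoblast culture B and lay between -0.36 and 0.24 in the other cultures.

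Myc, whose protein activates many genes of the set, read 1358, 649.7 and 1083 in the MCK-cre Rb flox myotubes, 697, 307 and 1139 in the WT myotubes, 2483, 2804 and 1555 in the Rb-null myoblasts and 1945, 2115 and 1998 in the WT myoblasts. It fell 2.79-fold in WT myotubes (limma adjusted p = 0.00811), and its change after Rb deletion in myotubes was 0.54 with overlapping cultures (limma adjusted p = 0.407). Mycn changed by 1.0 in WT myotubes (limma adjusted p = 0.287), with values from 106 to 1549 among these 3 cultures. Of the 26 tested genes of the MYC network and growth control, 5 fell in WT myotubes, led by Odc1, the first enzyme of polyamine synthesis, at -1.62, and 2 rose, Tsc2 at 0.81 and Mtor at 0.72. In MCK-cre Rb flox against WT myotubes 2 of them rose, the translation inhibitor Eif4ebp1 at 1.17 and the pyrimidine synthesis gene Cad at 0.61, and Akt1 fell by 0.89.

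Probe sets of the same gene did not always give the same result, and 27 of the 40 genes had more than 1. In the fit over 31931 probe sets, 34 of the 75 probe sets fell and 1 rose in WT myotubes against WT myoblasts, where 13.7% of all probe sets were called lower and 11.3% higher, and 23 of 40 genes had a probe set that fell. In MCK-cre Rb flox against WT myotubes 2 of 75 rose and 0 fell, where 4.96% of all were called higher and 3.25% lower. These 2 were not the probe sets that represented their genes. For Nop56 the signals were 2286, 2547 and 3032 in the MCK-cre Rb flox myotubes and 866, 980.3 and 1333 in the WT myotubes, a change of 1.22 (limma adjusted p = 0.00646), against 0.05 at the other probe set. For Rrp1b they were 1763, 1762 and 1368 in the MCK-cre Rb flox myotubes and 815, 924 and 906 in the WT myotubes, a change of 0.79 (limma adjusted p = 0.0398), with -0.18 and 0.22 at the other 2. Which of these probe sets reads the main transcript of its gene was not tested.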

How the data were processed

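The deposited values were MAS5 intensities, 1 table per array type, per the submitters' processing notes; the version of MAS5 was not given there. They were linear, and after removal of the lowest and highest 2% of probe sets every array had the same mean. Log2 values were computed from the deposited intensities plus an offset, the 20th percentile of each table. A probe set was kept where it exceeded the 40th percentile of its array on at least 3 of 12 arrays, and each gene was represented by 1 probe set, named from the platform annotation.

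All 12 cultures were fitted together with limma 3.58.1 (lmFit, eBayes with a variance trend, R 4.3.3), and p-values were adjusted by Benjamini-Hochberg over 14331 genes. The threshold for a call was an adjusted p under 0.05. Scripts were tested on simulated data. The members and gene lists were chosen with earlier results of these data known. All members could be named; values per culture were given for up to 6 called members in each direction of 3 comparisons and for a panel, and from each other list up to 2 called genes from each end and 8 fixed genes could be named. A few others (Rcl1, Nop16, Col3a1, Col5a2 and Fbln1, for example) were named after their values were seen. Alternatives covered offset, filter, normalisation, choice of probe set, scan day and leaving out each culture. P-values rest on the spread between cultures within groups, pooled over all 4 groups for each gene and drawn toward the trend over all genes. They do not measure the spread of the compared groups alone. The 3 cultures a group limit the precision.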

Additional observations from a re-analysis of the deposited data

Results flagged for a closer look

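For 4 named cell-cycle genes, and for 0 of the 40 ribosome biogenesis genes, the effect of Rb loss differed between myotubes and myoblasts by a test of that difference. Over all tested genes 1.49% were called higher and 0.74% lower by this test, so 0 of 40 was near the share over all genes. The same test called 25 of 54 G1/S genes and 21 of 45 G2/M genes higher. Ccne2 was not among the genes flagged. The log2 effect in myotubes minus that in myoblasts was 4.97 for Cdk1 (limma adjusted p = 2.57e-06), 4.03 for Mcm6 (limma adjusted p = 0.000103), 3.26 for Mki67 (limma adjusted p = 0.000528) and 2.32 for E2f1 (limma adjusted p = 0.00151).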

How the results depend on the processing

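The members called lower in WT myotubes against WT myoblasts (19) were 11 with scan day as a block, where 1 was called higher, 6 on the last scan day only, and 12 to 20 with 1 culture left out. In MCK-cre Rb flox against WT myotubes the 2 members called higher were 1 with the offset doubled or without the variance trend, 0 with median centring, with the brightest probe set or on the last scan day only, and 0 to 3 with 1 culture left out; the 0 called lower were 1 with quantile normalisation and 0 to 1 with 1 culture left out. The 24 called lower in MCK-cre Rb flox myotubes against Rb-null myoblasts were 3 with the block and 18 to 24 with 1 culture left out. The 22 called lower against WT myoblasts were 11 with the block, 1 on the last day only and 11 to 22 with 1 culture left out. In the difference of Rb effects array weights gave 1 called lower. In WT myotubes the direction turned for Polr1d (-0.88) and Tsr1 (-0.84) with the brightest probe set and for Nip7 (0.24) with the mean of probe sets. The 18S control probe sets differed by 0.15 on MOE430A and -0.40 on MOE430B on the last day only, against 3.24 and 2.80 over all days. The causes were not tested. No member was called in Rb-null against WT myoblasts under any setting run. No paired analysis was possible because no culture letter occurs in more than 1 group.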
